A study of Bos taurus with 32 samples.

Results

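The genes described here are those of the uterine epithelium that give it its keratin cytoskeleton, its cell junctions and its mucin coat. The list held 10 symbols: the keratins KRT8, KRT18, KRT19 and KRT35, the cadherin CDH1, the tight junction genes CLDN1, CLDN4, OCLN and TJP1, and the mucin MUC1. A probe counted for a gene when the array's gene name column held the symbol or its description held the symbol in brackets, and KRT35 was taken from probe A_73_115094. By this rule 7 of the 10 symbols had a probe, 1 each, among the 15208 probes of the array. KRT18 had none. KRT19 and TJP1 had a probe only through other annotation columns, so that their values are given beside the 7 and are not counted with them.

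Endometrium was taken on Day 15 of the estrous cycle from non-lactating Japanese Black cows, 4 repeat breeder (RB) and 4 normally fertile (non-RB), and was measured on 32 single-colour Agilent arrays. RB cows are animals that return to service after repeated insemination although the uterus and ovaries appear healthy. From each cow the caruncular (CAR) and the intercaruncular (ICAR) endometrium was taken from the horn ipsilateral and the horn contralateral to the corpus luteum, which gave 8 groups of 4 arrays. The groups differed in their history as well. By the study's methods the non-RB cows had conceived, pregnancy was ended with a single injection of the prostaglandin analogue cloprostenol, and normal cycles followed before sampling, whereas no such injection is described for the RB cows. RB status and this history cannot be told apart in any comparison of the groups. No genetic change is named, and the age is given for the cows as a whole and not by group. Equal replicate numbers among RB cows, or among non-RB cows, were read as marking a single animal, although no source used here says so.

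A simple epithelium holds its shape through intermediate filaments built from a type I and a type II keratin, KRT18 or KRT19 with KRT8. E-cadherin, the product of CDH1, joins neighbouring cells at adherens junctions. Claudins and occludin form the tight junction strands above them, and TJP1 (ZO-1) ties the strands to actin. MUC1 is a membrane mucin that covers the apical surface and is known as a barrier to embryo attachment in several species. KRT35 is a type I keratin known from the hair follicle. Caruncles are the aglandular sites where the bovine placenta attaches, whereas the intercaruncular endometrium carries the uterine glands.

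Of the probes, 3 on which the results below turn are shown as the array file gives them, 5′ to 3′ in lower case, each 60 bases long. KRT35 is shown because its gene assignment rests on a description as similar to human keratin 35, and CDH1 because it moved with KRT35. CLDN4 is shown because it was the junction gene with a lower mean in RB cows in all 4 compartments. None of these differences was called, and that in ICAR of the contralateral horn changed sign in some alternative fits. No genome build is named for the probes and no position is given.
KRT35: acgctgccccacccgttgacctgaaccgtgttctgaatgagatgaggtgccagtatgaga
CDH1: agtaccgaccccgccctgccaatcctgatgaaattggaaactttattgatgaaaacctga
CLDN4: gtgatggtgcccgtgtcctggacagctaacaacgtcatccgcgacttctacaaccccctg
The G and C content was 55.0% for KRT35, 45.0% for CDH1 and 58.3% for CLDN4.

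All 7 probes were well above background on all 32 arrays. A level below is the log2 of the background-corrected intensity minus the log2 of that array's 75th percentile, so that 0 is the 75th percentile of the array. Levels are compared between arrays for the same probe only, since probes differ in how strongly they bind. KRT8 was flagged as an outlier spot on CAR contralateral non-RB replicate 2 and CDH1 on ICAR contralateral non-RB replicate 1, and these values were left out. A cow's mean was then taken over its other 3 arrays.

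The tissue carried the epithelial markers. KRT8 ranged from 1.60 to 4.12, KRT19 from 0.23 to 3.44 and EPCAM, an epithelial adhesion molecule, from 2.32 to 5.48 across the arrays, and EPCAM was well above background on all 32. Stromal, smooth muscle and endothelial markers were well above background on all 32 arrays as well (9, 6 and 7 genes with a probe), so that each array reads a mixture of cell types. In such bulk samples, fewer epithelial cells and less mRNA per epithelial cell cannot be told apart.

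Arrays that stood apart are named first. The CAR and ICAR arrays of the contralateral horn of RB cow 3 ran against their labels. For each cow and horn the CAR minus ICAR difference was taken over the probes measured on both arrays, 12568 to 12917 of the 12919 tested, and set against the mean difference of the other 15 pairs. The correlation, a description across probes that are not independent, was -0.836 for this pair and lay between -0.155 and 0.799 for the others, with a median of 0.565. SPDEF, a transcription factor of secretory epithelium, was lower in CAR in all 15 other pairs and higher by 3.98 in this pair. FOXA2, a regulator of uterine glands, was lower in CAR in 14 of the 15 and higher by 3.44 in this pair. The exception among the 15 was the ipsilateral pair of non-RB cow 2 (1.64). Both pairs of that cow also had negative correlations, -0.155 in the ipsilateral and -0.029 in the contralateral horn, and they were kept. Whether the samples of RB cow 3 were exchanged was not tested, and the labels were kept. The second set is slide 1, which held only CAR contralateral non-RB replicate 2 and ICAR contralateral non-RB replicate 1. The log2 levels of the GAPDH spots had an SD of 1.32 and 0.873 on them. Results that rest on either set are given with and without them.

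**Figure D1:**
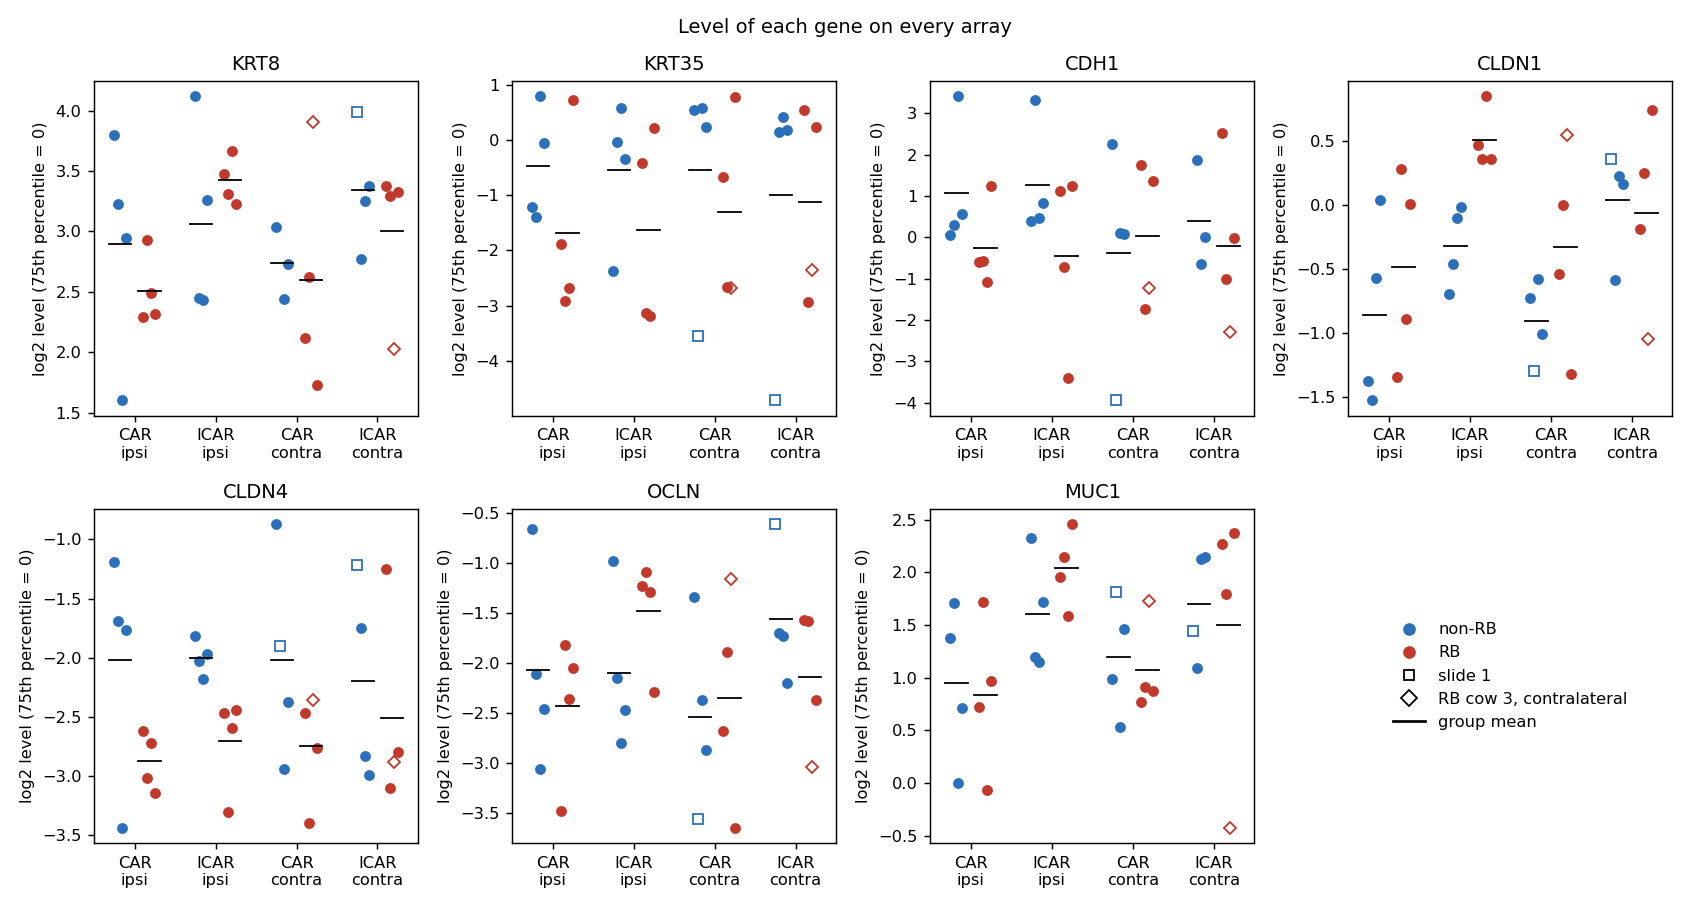
Log2 level of each of the 7 genes (vertical axis, 0 is the array's 75th percentile) on every array, by compartment and horn. Filled points are arrays of non-RB (blue) and RB (red) cows, open squares the arrays of slide 1, open diamonds the contralateral arrays of RB cow 3, and bars the group means; KRT8 of the contralateral RB cow 3 arrays is 3.91 in CAR and 2.03 in ICAR.

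The first comparison asked how the caruncular and the intercaruncular endometrium differ in these genes. CLDN1, MUC1, KRT8 and OCLN were measured at lower levels in CAR than in ICAR, by 0.53 to 0.70 on the log2 scale, and none of the 7 genes was called at an adjusted p under 0.05 over all 32 arrays. CLDN4, KRT35 and CDH1 differed by 0.13 or less. In the same fit 1.35% of the 12919 probes were called, 50 higher (0.387%) and 124 lower (0.960%) in CAR. At an unadjusted p under 0.05, 3 of the 7 genes were lower in CAR (CLDN1, MUC1 and KRT8) and 0 higher, whereas 7.55% of all probes were lower and 8.69% higher at that level. The median difference was -0.53 over the 7 genes and 0.02 over all probes.

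CLDN1, a barrier-forming claudin, had a median of -0.65 in CAR (lowest -1.53, highest 0.55) and of 0.20 in ICAR (lowest -1.05, highest 0.85). The ranges overlapped, but the CAR value was below the ICAR value of the same cow and horn in 14 of 16 pairs, and the mean over both horns was lower in CAR in all 8 cows. The difference was -0.69 (SE 0.20, 95% interval -1.09 to -0.28, n = 16 and 16 arrays), a fold of 1.61, with a limma adjusted p of 0.0639. This fit, like the main CAR and ICAR fits of the other genes, took the arrays as independent. Both horns of each of 8 cows entered, so that these intervals and p-values do not measure the spread between cows. With the replicate number as a block the same difference had an adjusted p of 0.0281, and 8.41% of all probes were called.

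MUC1 had a median of 0.94 in CAR (lowest -0.07, highest 1.81) and of 1.88 in ICAR (lowest -0.43, highest 2.46). It was lower in CAR in 13 of 16 pairs and, averaged by cow, in 6 of 8 cows. The others were RB cow 3 (0.25) and non-RB cow 2 (0.61). The lowest ICAR value was that of RB cow 3 in the contralateral horn, and without it the ICAR values began at 1.09. The difference was -0.70 (SE 0.23, interval -1.18 to -0.22), a fold of 1.62, with a limma adjusted p of 0.105.

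KRT8, the type II keratin of simple epithelia, ranged from 1.60 to 3.91 in CAR (15 arrays, median 2.62) and from 2.03 to 4.12 in ICAR (16 arrays, median 3.30). It was lower in CAR in 13 of 15 pairs and, averaged by cow, in 6 of 8 cows. The others were RB cow 3 (0.35) and non-RB cow 2 (0.62). The difference was -0.53 (SE 0.22, interval -0.97 to -0.08), with a limma adjusted p of 0.204. OCLN lay between -3.65 and -0.66 in CAR and between -3.04 and -0.61 in ICAR, was lower in CAR in 11 of 16 pairs, and differed by -0.53 (SE 0.27, limma adjusted p of 0.347).

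Without the contralateral arrays of RB cow 3, 3 of the 7 genes were called, all lower in CAR, where 9.97% of the 12879 probes tested were called, 4.95% lower and 5.02% higher. CLDN1 then differed by -0.84 (SE 0.19, fold 1.79, limma adjusted p of 0.00293), MUC1 by -0.89 (SE 0.19, fold 1.85, adjusted p of 0.00313) and KRT8 by -0.69 (SE 0.20, fold 1.62, adjusted p of 0.0224). OCLN differed by -0.69 with an adjusted p of 0.108. This pair was left out because it ran against the others, which moves the differences away from 0 by construction. In it CAR exceeded ICAR by 1.88 for KRT8, 1.60 for CLDN1, 1.88 for OCLN and 2.16 for MUC1, above the highest value of the other pairs for each of the 4 genes (0.78, 0.06, 0.31 and 0.72). For CDH1 and CLDN4 the pair lay within the range of the others, and so it did for KRT35. Without the 2 arrays of slide 1 no probe was called in limma (2005 at an unadjusted p under 0.05) and the differences were -0.62 for CLDN1 (SE 0.20), -0.77 for MUC1 (SE 0.24), -0.48 for KRT8 (SE 0.22) and -0.36 for OCLN (SE 0.27).

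**Figure D2:**
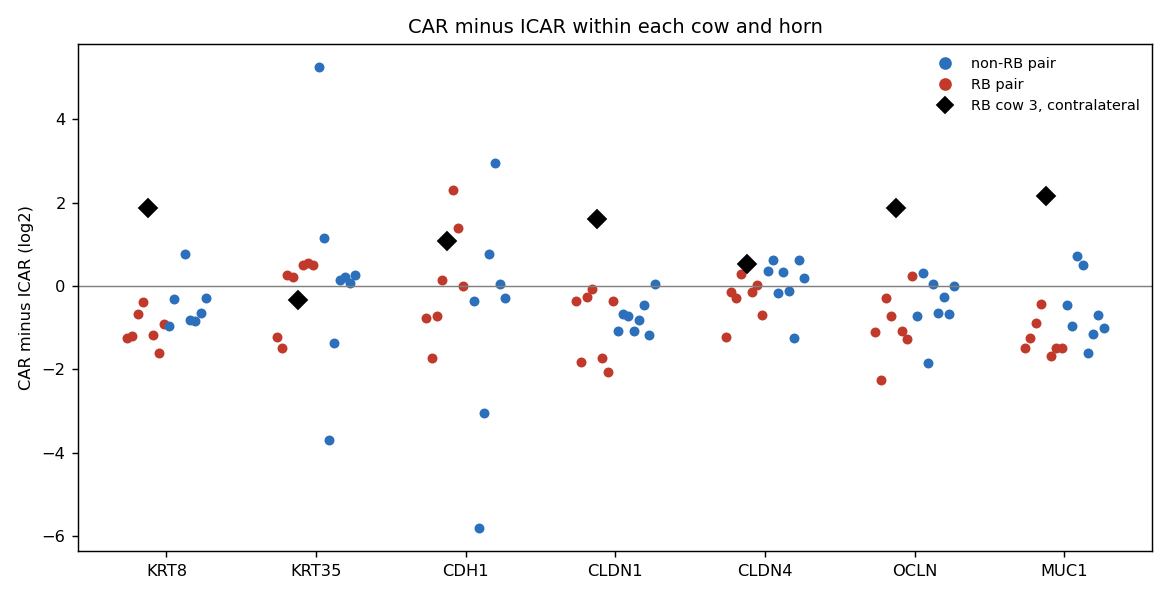
CAR minus ICAR difference (log2, vertical axis) within each cow and horn for the 7 genes, with blue points for non-RB and red points for RB pairs. The black diamond is the contralateral pair of RB cow 3, which lies above the other pairs for KRT8 (1.88), CLDN1 (1.60), OCLN (1.88) and MUC1 (2.16) and within them for CDH1, CLDN4 and KRT35.

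**Figure D3:**
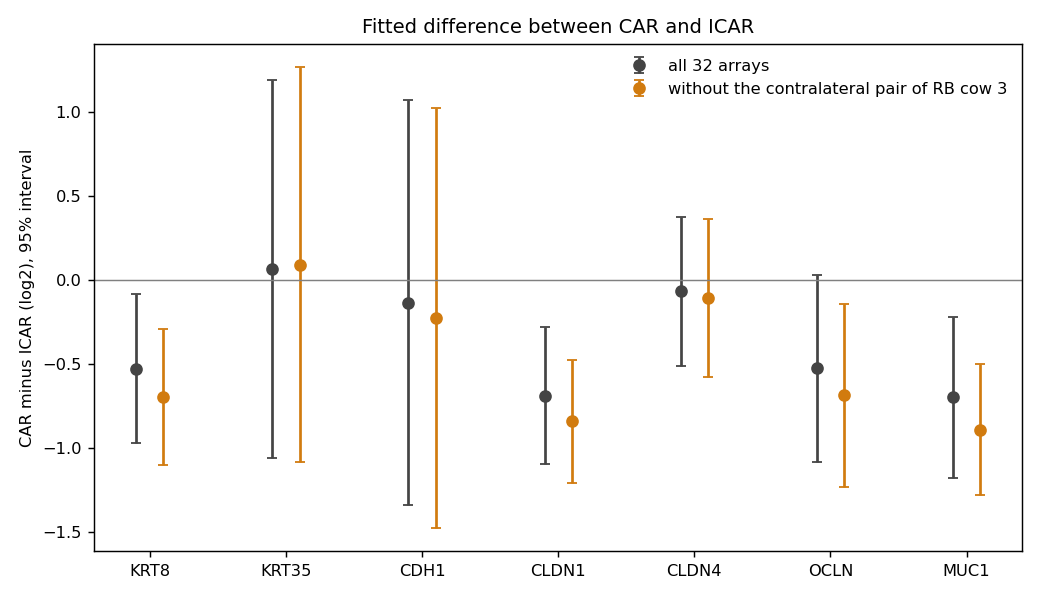
Fitted CAR minus ICAR difference (log2) with its 95% interval for the 7 genes, over all 32 arrays (grey) and without the contralateral pair of RB cow 3 (orange). CLDN1, MUC1 and KRT8 lie below 0 in both fits and CLDN4, KRT35 and CDH1 straddle it.

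CLDN4, a claudin of tight epithelia, differed by -0.07 between the compartments (interval -0.51 to 0.38) and was lower in CAR in 8 of 16 pairs. This interval does not show that the levels were equal. The intervals of CDH1 (-1.34 to 1.07) and KRT35 (-1.06 to 1.19) were wide enough to hold differences as large as those of CLDN1 or MUC1 in either direction. KRT19 differed by -0.25 (interval -0.69 to 0.19) and TJP1 by -0.13 (interval -0.36 to 0.10).

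The difference was also fitted in each group of cows. In non-RB cows 0 of 12844 probes were called (539, or 4.2%, at an unadjusted p under 0.05), with CLDN1 at -0.74 (SE 0.24, unadjusted p = 0.00655, limma adjusted p of 0.736) and MUC1 at -0.58 (SE 0.28). In RB cows 0 of 13010 were called (1974, or 15.2%, at an unadjusted p under 0.05), with MUC1 at -0.82 (SE 0.37), KRT8 at -0.66 (SE 0.28) and CLDN1 at -0.63 (SE 0.32). Without the contralateral pair of RB cow 3, CLDN1, KRT8 and MUC1 were called lower in the RB cows, where 15.6% of probes were called, 7.28% lower. The difference between RB and non-RB cows in the CAR minus ICAR value was tested over 4 cows a group and was not called for any of the 7 genes (limma adjusted p of 0.9995 for each).

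Within the scan sessions the CAR minus ICAR differences of CLDN1 were -0.56 in session 2 (7 and 5 arrays), -0.80 in session 3 (5 and 6), -0.42 in session 4 (3 and 4) and -1.67 between the 2 arrays of session 1. For MUC1 they were -0.33, -1.09 and -1.04 in sessions 2, 3 and 4 and 0.37 in session 1. For KRT8 they were -0.25, -0.71 and -0.76 in sessions 2, 3 and 4. The direction was thus the same in sessions 2, 3 and 4 for the 3 genes, and in session 1 MUC1 was higher in CAR.

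Related genes of the epithelium were read from lists of other keratins, claudins, tight junction, adherens junction and desmosome proteins, mucins, and the transcription factors and repressors of epithelial genes. Of 109 symbols 43 had a probe, and 35 were tested. None was called between CAR and ICAR over all arrays, where 1.35% of all probes were. At an unadjusted p under 0.05, 11 were lower and 2 higher in CAR, where 7.55% of all probes were lower and 8.69% higher. The median difference was -0.28 over the 35 genes and 0.02 over all probes. Without the contralateral pair of RB cow 3, 8 of the 35 were called lower in CAR and 1 higher, where 4.95% of all probes were called lower and 5.02% higher. The pair was left out because it ran against the others, which by construction moves differences of the direction common to them away from 0. Calls made without the pair in the paragraphs below carry the same limit.

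Among the claudins outside the 7 genes, 2 of 6 tested were called lower in CAR without that pair, where 4.95% of all probes were. CLDN7 differed by -0.78 over all arrays (SE 0.22, limma adjusted p of 0.0603) and by -0.99 without the pair (adjusted p of 0.000886). CLDN10 differed by -0.97 (adjusted p of 0.0652) and by -1.14 without the pair (adjusted p of 0.00641). Of the desmosome proteins, which anchor keratin filaments at the cell border, DSC2 differed by -0.62 (adjusted p of 0.0691) and PKP3 by -0.64 (adjusted p of 0.157) over all arrays, and both were called without the pair.

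The epithelial transcription factors GRHL2, GRHL1 and EHF, of which GRHL2 is known to activate CDH1 and claudin genes, differed by -0.72, -0.79 and -0.59 over all arrays (limma adjusted p of 0.0773, 0.0934 and 0.164). Without the pair they differed by -0.91, -0.95 and -0.73 and all 3 were called. SNAI2, a repressor of CDH1, was the gene called higher in CAR without the pair, by 0.96 (adjusted p of 0.00152), and by 0.78 over all arrays (adjusted p of 0.0559). EPCAM, kept in the list of adherens junction proteins, differed by -0.52 over all arrays (adjusted p of 0.185) and by -0.66 without the pair (adjusted p of 0.0258). None of the keratins outside the 7 genes was called in either fit.

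Of the glandular markers, SPDEF (-1.92, limma adjusted p of 0.0353) and FOXA2 (-1.69, adjusted p of 0.0361) were called lower in CAR over all arrays. They differed by -2.31 and -2.03 without the contralateral pair of RB cow 3 (adjusted p of 0.000182 and 0.000255). Both had been used to describe that pair as standing apart, so that leaving it out moves them away from 0 by construction. The other glandular markers, LTF (-0.34), TTR (-0.49) and SERPINA14 (0.07 over all arrays), were not called in either fit. The mean level of the 5 glandular genes lay between -3.26 and -0.95 in CAR and between -3.25 and -0.48 in ICAR. All 9 stromal markers tested had a higher mean in CAR, 0 of them called. At an unadjusted p under 0.05, 5 of the 9 were higher, where 8.69% of all probes were higher. Their mean over the list was 0.38 to 1.28 in CAR and -0.22 to 1.2 in ICAR. The mean of the smooth muscle markers lay between -0.30 and 0.57 in CAR and between -0.73 and 0.80 in ICAR (4 of 6 higher in CAR), that of the endothelial markers between -3.55 and -2.51 and between -3.66 and -2.54 (5 of 7 higher), and that of the leukocyte markers between -4.54 and -3.68 and between -5.43 and -3.87 (6 of 8 tested higher). None of the stromal, smooth muscle, endothelial and leukocyte markers was called over all arrays. Without the contralateral pair of RB cow 3, COL1A2, a fibrillar collagen chain of the stroma, differed by 0.73 (limma adjusted p of 0.0223) and DES, the muscle filament desmin, by 0.74 (adjusted p of 0.0464), and both were called higher in CAR. CD4 was not well above background on any array. The part of the cell mixture in the difference of the epithelial genes was not tested.

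The main comparison of the study was that between RB and non-RB cows, made in each compartment of each horn over 4 and 4 arrays. None of the 7 genes was called in any of the 4 compartments, in the mean over a cow's 4 arrays, or in the tests of whether the RB difference itself differed between compartments or between horns. In these comparisons 0% of probes were called in limma, and between 114 (the RB difference between CAR and ICAR) and 773 (that between the horns) had an unadjusted p under 0.05. Taking the 32 arrays as independent samples called 0.464% of probes and none of the 7 genes. In the cow means, 0 of the 7 genes had an unadjusted p under 0.05, where 2.21% of probes did. Exact permutation tests over the 35 ways to split 8 arrays or cows into equal groups cannot give a p below 0.0286. In simulated data the limma fit of ICAR ipsilateral recovered 6.1% of changes of 1 on the log2 scale and 63% of changes of 2. The lack of a call in these comparisons therefore does not show that the levels were equal.

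In ICAR of the ipsilateral horn CLDN1 was higher and CLDN4 lower in RB cows, and neither passed the adjustment. CLDN1 was 0.47, 0.36, 0.85 and 0.36 in RB cows 1 to 4 and -0.70, -0.46, -0.10 and -0.02 in non-RB cows 1 to 4. The RB arrays were all higher than the highest non-RB array. The difference was 0.83 (SE 0.23, interval 0.31 to 1.35), a fold of 1.78, with an unadjusted p of 0.00555, an adjusted p of 0.863 and an exact permutation p of 0.0286, two-sided. CLDN4 was -2.47, -3.30, -2.59 and -2.44 in RB cows 1 to 4 and -1.82, -2.03, -2.18 and -1.97 in non-RB cows 1 to 4. The RB arrays were all lower than the lowest non-RB array. The difference was -0.70 (SE 0.24, interval -1.25 to -0.15), a fold of 1.63, with an unadjusted p of 0.0177, an adjusted p of 0.863 and an exact permutation p of 0.0286, two-sided. Groups that do not overlap were found for 2.23% of the 12889 probes tested there, and an unadjusted p under 0.05 for 3.69%.

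None of the glandular or stromal markers was called in the same 8 arrays. SPDEF was 1.07 ± 0.30 (SD, n = 4) in RB and -0.57 ± 1.39 in non-RB cows, a difference of 1.65 (SE 0.60, limma unadjusted p of 0.0213, adjusted p of 0.863), and FOXA2 was 0.07 ± 0.68 and -1.22 ± 1.30, a difference of 1.30 (SE 0.61, limma unadjusted p of 0.0631). The mean level of the 5 glandular markers was -0.96 ± 0.43 (range -1.44 to -0.48) in RB and -1.81 ± 1.01 (range -2.94 to -0.56) in non-RB cows, with 4 of the 5 higher in RB cows and 1 of them at an unadjusted p under 0.05. That of the 9 stromal markers was 0.36 ± 0.34 and 0.60 ± 0.48, with 8 of the 9 lower in RB cows and 0 at that level. Their part in the differences of CLDN1 and CLDN4 was not tested.

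Of the genes beside the 7, TJP1 was also higher in RB cows in this compartment without overlap (0.49, SE 0.30, limma unadjusted p = 0.130). The gap was narrow, with RB arrays from 2.47 to 2.68 and non-RB arrays from 1.17 to 2.45 (median 2.31). Within scan sessions the CLDN1 difference was 1.30 in session 2 (2 RB and 1 non-RB array), 0.42 in session 3 (1 and 2) and 0.93 in session 4 (1 and 1). The CLDN4 difference was -1.13, -0.37 and -0.44. Both directions were the same in the 3 sessions. With groups that do not overlap this must be so in any subset, so that it is no separate check.

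In the other 3 compartments and in the cow means, RB and non-RB cows overlapped for all 7 genes. Groups that do not overlap were found there for 1.97% of probes (CAR ipsilateral), 1.37% (CAR contralateral), 1.48% (ICAR contralateral) and 1.19% (cow means). CLDN4 differed by -0.85 (interval -1.84 to 0.13) in CAR ipsilateral, by -0.73 (-1.73 to 0.28) in CAR contralateral and by -0.31 (-1.50 to 0.88) in ICAR contralateral. In CAR ipsilateral the 4 RB arrays lay between -3.14 and -2.62, and 3 non-RB arrays lay between -1.77 and -1.19 with the remaining array at -3.44. With the session as a block this difference was -1.35 (limma unadjusted p of 0.000563, adjusted p of 0.491). The array at -3.44 was the only one of session 4 in this compartment, so that it does not enter the blocked difference. The larger value therefore leaves out the array that ran the other way. Within sessions 3 and 4 the ICAR contralateral difference of CLDN4 was 0.11 and 0.49, against the direction of the pooled value. CLDN1 differed by 0.37 in CAR ipsilateral, 0.58 in CAR contralateral and -0.10 in ICAR contralateral, the last on the opposite side. With the session as a block the contralateral values of CLDN1 were -0.22 in CAR and 0.48 in ICAR, both of the opposite sign. In that horn only sessions 3 and 4 held both RB and non-RB arrays, so that RB cows 2 and 3 and slide 1 do not enter these values. Without the contralateral arrays of RB cow 3 CLDN1 differed by 0.28 in CAR and 0.23 in ICAR of that horn and CLDN4 by -0.86 and -0.19, and without slide 1 by 0.44 and 0.005 for CLDN1 and -0.69 and 0.016 for CLDN4. Over cow means CLDN4 differed by -0.65 (SE 0.34, exact permutation p = 0.200 for n = 4 and 4) and CLDN1 by 0.42 (SE 0.22, exact permutation p = 0.114).

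KRT8, OCLN and MUC1 showed no common direction across the compartments. KRT8 differed by 0.36 in ICAR ipsilateral and by -0.39 to -0.14 in the other compartments. OCLN ranged from -0.58 to 0.63 and MUC1 from -0.20 to 0.44. Without the contralateral arrays of RB cow 3, MUC1 in ICAR contralateral was 0.44 and OCLN in CAR contralateral -0.20. With the session as a block OCLN in CAR contralateral changed from 0.19 to -1.16 (SE 0.30, limma unadjusted p of 0.00989, adjusted p of 0.651) and with the slide as a block to -1.31. MUC1 in ICAR contralateral changed from -0.20 to 0.64 with the session and to 0.71 with the slide as a block. These blocked values rest on the sessions (3 and 4) or slides (6 and 8) of that horn that hold both RB and non-RB arrays. RB cows 2 and 3 do not enter them, so that they are values of a subset. Over cow means the intervals were -0.73 to 0.47 for KRT8, -0.88 to 0.82 for OCLN and -0.56 to 0.56 for MUC1. KRT19 differed by -0.43 (interval -1.13 to 0.28) and TJP1 by 0.19 (interval -0.16 to 0.54) over cow means.

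KRT35 and CDH1 had the largest spread of the 7 genes. Over cow means they differed between RB and non-RB cows by -0.80 (SE 0.81, interval -2.63 to 1.03) and -0.84 (SE 0.64, interval -2.27 to 0.60). The 4 RB cows had KRT35 means of -0.61, -2.91, -2.73 and 0.49, and the 4 non-RB cows -1.94, -1.22, 0.59 and 0.00. The CDH1 means were 1.19, -1.01, -2.001 and 0.95 in RB cows and 0.90, 0.38, 0.83 and 0.36 in non-RB cows. Without slide 1 the differences were -1.23 (SE 0.72) for KRT35 and -1.20 (SE 0.67) for CDH1. The RB cows thus fell on both sides of the non-RB cows for CDH1 and overlapped them for KRT35.

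**Figure D4:**
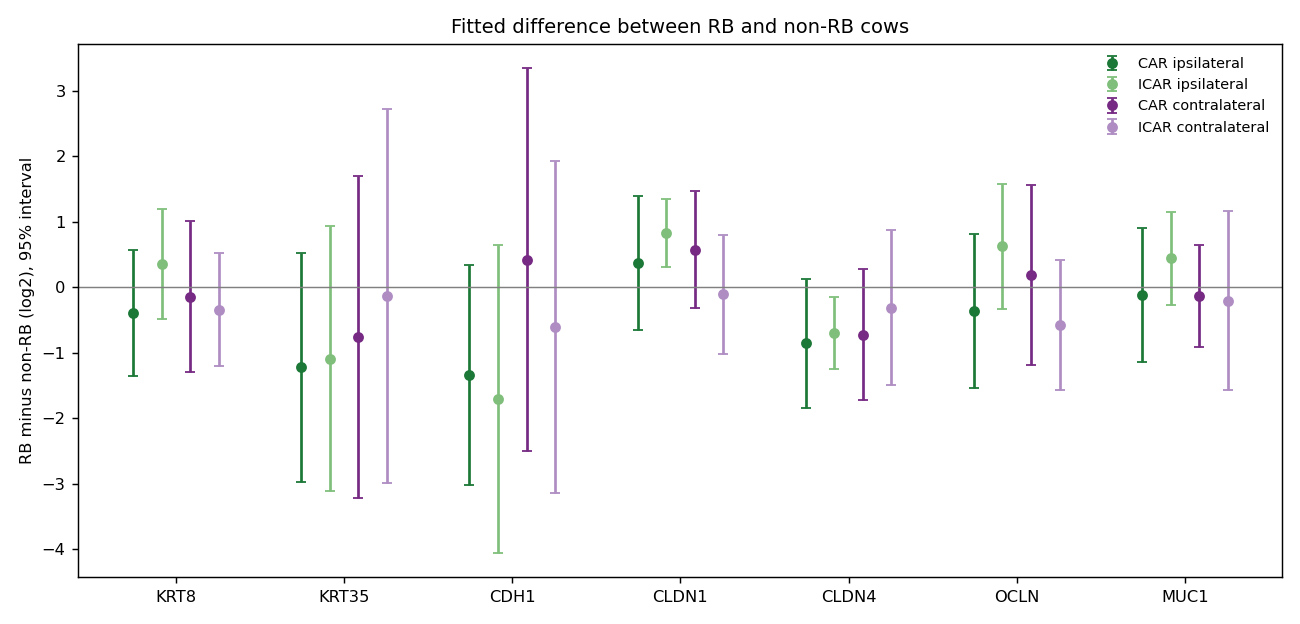
Fitted RB minus non-RB difference (log2) with its 95% interval for the 7 genes in each compartment, 4 and 4 arrays each. Only CLDN1 (0.83) and CLDN4 (-0.70) in ICAR of the ipsilateral horn have an interval that excludes 0, and the intervals of KRT35 and CDH1 are the widest.

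Among the related epithelial genes, 35 to 38 were tested in each compartment and in the cow means, and 0 were called. In the cow means PKP1, a desmosomal plakophilin, had the smallest unadjusted p among the desmosome proteins in limma (-0.80, SE 0.25, unadjusted p of 0.0106), and CLDN10 among the other claudins (0.74, SE 0.28, unadjusted p of 0.0257). In ICAR of the ipsilateral horn the smallest among the other claudins were CLDN7 (0.89, SE 0.31, unadjusted p of 0.0189) and CLDN10 (1.73, SE 0.66, unadjusted p of 0.0280), both with a limma adjusted p of 0.863. There 3 of the 35 genes had an unadjusted p under 0.05 with a higher mean in RB cows and 0 with a lower mean, where 2.23% of all probes were higher and 1.45% lower. In CAR of the ipsilateral horn PKP1 differed by -1.43 (SE 0.29, unadjusted p of 0.000529), CLDN3 by -1.43 (SE 0.61, unadjusted p of 0.0414) and ELF5, an epithelial transcription factor, by 2.12 (SE 0.68, unadjusted p of 0.0109), each with a limma adjusted p of 0.9997. KRT31, a hair keratin like KRT35, differed there by -0.61 (SE 0.26, unadjusted p of 0.0407). These 4 were the genes of the 36 tested there with an unadjusted p under 0.05, 1 higher and 3 lower in RB cows, where 1.44% of all probes were higher and 1.96% lower. In CAR of the contralateral horn 1 of 38 passed that level, CLDN16 (1.56, SE 0.62, unadjusted p of 0.0328), where 1.2% of all probes were higher and 0.533% lower, and in ICAR of the contralateral horn 0 of 36 did. Over the other compartments the group means of the glandular markers were -2.51 in RB and -2.02 in non-RB cows (CAR ipsilateral), -2.21 and -2.56 (CAR contralateral) and -1.76 and -1.27 (ICAR contralateral).

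KRT35 followed the scan session of the array. A session holds the arrays scanned within the same calendar month, numbered in order of time, and there were 4, with 2, 12, 11 and 7 arrays. In sessions 1 and 2 KRT35 lay between -4.72 and -1.22, and in sessions 3 and 4 between -0.68 and 0.79. The 14 earlier and the 18 later arrays did not overlap. This held for 0.495% of the 12919 probes, 37 higher (0.286%) and 27 lower (0.209%) in the later sessions. With status, compartment and horn in the model, the later sessions exceeded the earlier ones by 3.02 (SE 0.23), a fold of 8.13, with a limma adjusted p of 2.03e-10, the 2nd smallest p over all probes. In this fit, which had no term for the cow and included slide 1, 32.1% of probes were called. The comparison of sessions was chosen after seeing the data, so that its p-values and rank describe the split and are no independent test of it.

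CDH1 also differed between the sessions. Its median was -0.86 in session 2 (12 arrays), 0.46 in session 3 (11 arrays) and 2.26 in session 4 (7 arrays), and the array of session 1 that kept the spot read -3.95. The later sessions exceeded the earlier ones by 2.63 (SE 0.45, limma adjusted p of 7.8e-05), and session 4 exceeded session 3 by 1.87 (SE 0.30, adjusted p of 0.0020), where 10.3% of probes were called. KRT35 differed by -0.19 (SE 0.21) between sessions 4 and 3. KRT8 was lower in the later sessions by -0.59 (SE 0.21, adjusted p of 0.0340) and KRT19 by -0.83 (SE 0.17, adjusted p of 0.000639), whereas CLDN1, CLDN4, OCLN and MUC1 were not called.

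Session and status were not balanced. Session 1 held 0 RB and 2 non-RB arrays, session 2 held 9 and 3, session 3 held 4 and 7, and session 4 held 3 and 4. All arrays of RB cows 2 and 3 were in session 2. Since the earlier and later arrays did not overlap for KRT35, the order within single cows with both kinds of session had to be the same. The values of these cows describe the split and are no separate check. RB cow 1 had KRT35 at -1.89 on its session 2 array and between -0.68 and 0.54 on 3 later arrays. Non-RB cow 1 had it between -4.72 and -1.22 on 3 earlier arrays and at 0.54 on a later array. Non-RB cow 2 had it at -3.56 and -1.40 on 2 earlier arrays and between -0.04 and 0.15 on 2 later arrays. The values of -4.72 and -3.56 are those of slide 1.

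With the cow as a block, the later sessions exceeded the earlier ones by 2.79 for KRT35 (SE 0.43, limma adjusted p of 0.000421) and by 3.86 for CDH1 (SE 0.67, adjusted p of 0.00105), where 15.4% of probes were called. KRT8 was not called in this fit (-0.45, adjusted p of 0.434). Without the arrays of slide 1, which make up session 1, the cow-blocked differences were 1.78 for KRT35 (adjusted p of 0.000329) and 2.95 for CDH1 (adjusted p of 0.00521), where 7.75% of probes were called.

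The RB differences of these genes were recomputed with the session as a block. A session that holds a single status in a compartment adds nothing to that difference. In CAR ipsilateral this left out non-RB cow 3, and in the contralateral horn RB cows 2 and 3 and slide 1. KRT35 changed from -1.22 to -0.61 in CAR ipsilateral, from -1.09 to -0.35 in ICAR ipsilateral, from -0.76 to -0.31 in CAR contralateral and from -0.13 to 0.14 in ICAR contralateral. CDH1 changed from -1.34 to -0.45 in CAR ipsilateral, from -1.70 to -1.29 in ICAR ipsilateral, from 0.42 to 0.51 in CAR contralateral and from -0.61 to 0.45 in ICAR contralateral. CLDN1 and CLDN4 in ICAR ipsilateral were 0.88 and -0.66 in that fit, close to 0.83 and -0.70 without the block. What differed between the sessions beside the scan was not tested.

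**Figure D5:**
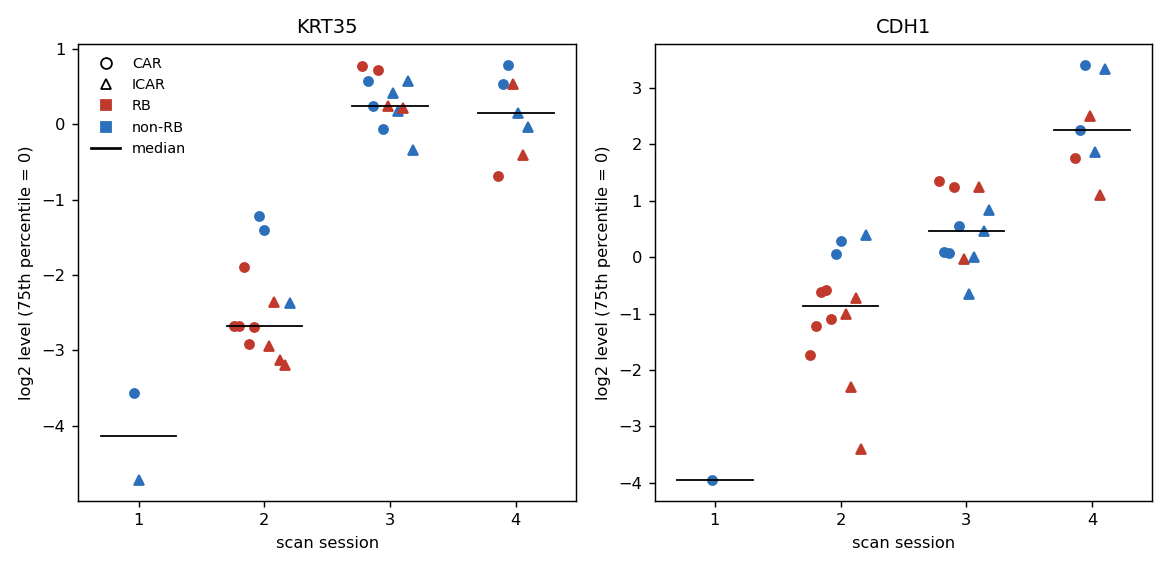
Log2 level of KRT35 and CDH1 (vertical axes) on each array by scan session, with circles for CAR, triangles for ICAR, red for RB, blue for non-RB and bars for the median. KRT35 lies below -1.2 on all arrays of sessions 1 and 2 and above -0.7 on all arrays of sessions 3 and 4, and the CDH1 median rises from -0.86 in session 2 to 2.26 in session 4.

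The horn itself made no called difference. None of the 7 genes was called between the ipsilateral and the contralateral horn (0 of 12919 probes called in limma, 176 at an unadjusted p under 0.05), and their differences lay between -0.09 for KRT35 (SE 0.55) and 0.44 for CDH1 (SE 0.59). CLDN1 (interval -0.38 to 0.43), CLDN4 (-0.47 to 0.41) and KRT8 (-0.39 to 0.50) had the narrowest intervals.

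The 7 genes did not vary as a single block. Over the 32 arrays, which share cows and sessions, KRT8 correlated with OCLN (Pearson r of 0.83), KRT19 (0.825) and MUC1 (0.75). KRT35 correlated with CDH1 (0.762) and ran against KRT8 (-0.409). CLDN4 had its highest correlations with KRT19 (0.530) and KRT8 (0.436). The named probes most like KRT8 among the 12919 were PPM1H (0.957), FLAD1 (0.939) and NME7 (0.924). Those most like KRT35 were DNAJC2 (0.939), MISP (0.934) and PROK1 (0.928), and those most like CDH1 were TMED9 (0.949), CACNA1H (0.920) and MSLNL (0.917). For CLDN4 they were HCRTR1 (0.858), BCAM (0.851) and DUSP4 (0.847). The likeness of a probe to KRT35 or CDH1 includes the session. The correlations describe these arrays and carry no test.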

How the data were processed

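Total RNA of 32 endometrial samples was labelled with Cy3 and hybridised to single-colour bovine Agilent arrays. The authors deposited the scanner output of Agilent Feature Extraction 9.5, from which the background-corrected intensity of each spot (processed signal) was used, and a table of log2 values deposited by the authors, which equals that intensity scaled to each array's 75th percentile plus a constant of 0.0042 to 0.014. The intensities were divided by the array's 75th percentile (1165 to 4857) and set on the log2 scale. Outlier spots were left out, and a probe was tested when it was well above background on 8 or more of 32 arrays (4 of 16, 2 of 8). No coordinates were used, since no genome build is named.

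Differences were tested with lmFit and eBayes of limma 3.58.1 in R 4.3.3, with Benjamini-Hochberg adjustment over all probes tested and an adjusted p under 0.05 called. CAR was compared with ICAR over 32 arrays with status and horn in the model, and RB with non-RB in each compartment and over cow means. Each gene on a list is represented by its probe of highest mean. All 7 genes are described. In RB comparisons up to 2 genes a list with the smallest p, and between CAR and ICAR up to 3 called genes a list and direction, were chosen for naming; those called without the contralateral pair of RB cow 3 were named by the same rule. The genes and lists were chosen with earlier results of these data known. The fit was tested on simulated data, drawn independently for each probe and array with the probe's spread over the 32 arrays. Changes of 1 and 2 on the log2 scale were recovered in 84% and 97% of cases for CAR against ICAR. For RB against non-RB in ICAR ipsilateral these shares were 6.1% and 63%. Where nothing states that same-group samples were prepared independently, p-values measure the spread between these samples, with a precision limited by how many arrays there are. Alternatives were other filters, quantile normalization, the log2 table as deposited, normexp with an offset of 50, blocks for slide, session and replicate number, leaving out each cow, and the methods' t-test. Leaving out slide 1 or the contralateral pair of RB cow 3, and the session comparison, were chosen after seeing the data.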

Additional observations from a re-analysis of the deposited data

Results flagged for a closer look

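In 9 of the 54 groups of 4 arrays examined, a single array lay far from the other 3, by the ratio of its gap to the range of the group; about 1 in 20 groups would do so by chance. For KRT35 these were CAR contralateral non-RB replicate 2 (-3.56) and ICAR contralateral non-RB replicate 1 (-4.72), the 2 arrays of slide 1. For CDH1 they were CAR ipsilateral non-RB replicate 3 (3.41) and ICAR ipsilateral non-RB replicate 2 (3.33), both of scan session 4, the session with the highest CDH1 median. For KRT8 and MUC1 they were the contralateral arrays of RB replicate 3, with KRT8 at 2.03 in ICAR and MUC1 at 1.73 in CAR, each on the side that runs against the other pairs of CAR and ICAR arrays. For CLDN4 they were ICAR contralateral RB replicate 1 (-1.25) and ICAR ipsilateral RB replicate 2 (-3.3), and for OCLN it was ICAR ipsilateral RB replicate 4 (-2.29).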

How the results depend on the processing

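None of the 7 genes was called in the comparisons of RB with non-RB cows, in the horn comparison or in CAR against ICAR among non-RB cows, in any alternative run. In CAR against ICAR 0 were called over all arrays, 1 with the replicate number as a block (CLDN1), 0 to 2 when each cow was left out (MUC1 without non-RB cow 2, CLDN1 and MUC1 without RB cow 3) and 3 without the contralateral pair of RB cow 3 (CLDN1, KRT8 and MUC1). In RB cows alone the count was 0 to 2 when a cow was left out (KRT8 and MUC1 without RB cow 3) and 3 without that pair. The 174 probes called between CAR and ICAR became 64 with normexp, 0 in the methods' t-test, 531 with the session as a block, 1086 with the replicate block, 1284 without that pair, 0 without slide 1 and 0 to 915 when each cow was left out. The 32 arrays taken as independent samples gave 60 probes between RB and non-RB cows, none of them of the 7 genes. Same-numbered arrays of a group of cows deviated together (mean r of 0.413 in RB and 0.381 in non-RB), but 43 of 48 such pairs, not all, exceeded 0.1, and the replicate block changed no other call of the 7 genes. No gene had more than 1 probe, so that a mean over probes could not be tried.

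Of 812 single differences recomputed, 724 kept direction and call. In the contralateral horn the RB differences with the slide or session as a block leave out RB cows 2 and 3 and slide 1. No slide or session of those arrays held both statuses in that horn. With the slide as a block the sign changed for CDH1 (0.35) and CLDN4 (0.04) in CAR against ICAR, for MUC1 (0.008) in CAR ipsilateral, for CLDN1 (-0.28), MUC1 (0.052) and OCLN (-1.31) in CAR contralateral, for CDH1 (0.64), CLDN1 (0.45), CLDN4 (0.26), KRT35 (0.11), KRT8 (0.34) and MUC1 (0.71) in ICAR contralateral, and for CDH1 (0.068), KRT8 (0.11) and MUC1 (0.55) in the cow means. With the session as a block it changed for CDH1 (0.48) in CAR against ICAR, CLDN1 (-0.22) and OCLN (-1.16) in CAR contralateral, CDH1 (0.45), CLDN1 (0.48), CLDN4 (0.28), KRT35 (0.14), KRT8 (0.27) and MUC1 (0.64) in ICAR contralateral, and MUC1 (0.002) in the cow means. Without slide 1 it changed for CDH1 (0.15) and KRT35 (-0.008) in CAR against ICAR, CDH1 (-0.77), MUC1 (0.071) and OCLN (-0.15) in CAR contralateral, CLDN1 (0.005) and CLDN4 (0.016) in ICAR contralateral, and MUC1 (0.02) in the cow means. Without the contralateral pair of RB cow 3 it changed for OCLN (-0.20) in CAR contralateral, CDH1 (0.093), CLDN1 (0.23), KRT35 (0.28) and MUC1 (0.44) in ICAR contralateral, and MUC1 (0.012) and OCLN (0.005) in the cow means. Normexp changed KRT35 (-0.065) in CAR against ICAR and MUC1 (0.009) in the cow means, and quantile normalization MUC1 (0.031) there.

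When each cow was left out, sign changes gave these ranges. In CAR against ICAR they were -0.44 to 0.48 for CDH1, -0.15 to 0.022 for CLDN4 and -0.38 to 0.44 for KRT35. In CAR ipsilateral they were -0.43 to 0.19 for MUC1 and -0.68 to 0.12 for OCLN. In CAR contralateral they were -0.77 to 1.30 for CDH1, -0.58 to 0.15 for KRT8, -0.35 to 0.071 for MUC1 and -0.20 to 0.63 for OCLN. In ICAR contralateral they were -1.51 to 0.12 for CDH1, -0.37 to 0.23 for CLDN1, -0.73 to 0.016 for CLDN4, -1.37 to 0.47 for KRT35 and -0.49 to 0.44 for MUC1. In the cow means they were -0.33 to 0.11 for KRT8, -0.14 to 0.22 for MUC1 and -0.20 to 0.36 for OCLN. None of these reversed differences was called, and the cause was not tested.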
